A study of Mus musculus with 21 samples.

Results

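The genes described here encode the proteins of the cytosolic ribosome, followed across sorted heart macrophages and spleen monocytes of mice. They were chosen by name: Rpsa, Rplp0, Rplp1, Rplp2 and every symbol made of Rps or Rpl, digits and at most a single letter, with pseudogenes left out and with at least 1 CPM (counts per 1000000 counts of the library) in at least 3 of the 21 libraries. The name rule matched 83 symbols. Rpl6l and Rps4l are pseudogenes in the RefSeq annotation and were left out, and Rpl39, Rps28 and Rpl10l missed the CPM rule, with highest values of 0.869, 1.30 and 0.0665 CPM in any library. That left 78 members of the 27179 gene IDs in the table, 30 of the small and 48 of the large subunit. All 78 were among the 13275 genes with enough counts to be tested. The rule used no difference between groups, only a minimum level. Rpl38 reached that level in 4 libraries, none of them of naive macrophages. For Rpl38 the rule itself therefore favours higher values after CAWS, and it stays in the counts below.

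RNA was sequenced from sorted cells of C57BL/6 mice in 7 groups of 3 libraries. CAWS R1, CAWS R2 and CAWS R3 were cardiac macrophages of mice given CAWS, a soluble fraction of the yeast Candida albicans that inflames coronary arteries and serves as a model of Kawasaki disease. Naive R1, naive R2 and naive R3 were the same 3 gates from untreated hearts, R1 being Ccr2-negative with low MHC-II, R2 Ccr2-negative with high MHC-II and R3 Ccr2-positive with high MHC-II. The last group held Ccr2-positive monocytes from spleens of naive mice. Each library is a pool of mice, and within a treatment the 3 cardiac gates were taken from the same pools, so a library stands for a pool and not for 1 animal.

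A ribosome joins a small subunit, which reads the messenger RNA, to a large subunit, which forms the peptide bond, and each subunit carries its own set of proteins on a ribosomal RNA core. Messages for these proteins usually begin with a run of pyrimidines, the terminal oligopyrimidine (TOP) tract, through which the growth regulator mTORC1 controls their translation as a group. The same tract is carried by elongation factors and by the poly(A)-binding protein. Ribosome number is tied to how much protein a cell makes, and macrophages and monocytes that become active alter their protein output.

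Library totals ran from 12800136 to 23006155 counts. Ccr2 stood at 3466 to 4063 CPM in CAWS R3 and 2041 to 2599 CPM in naive R3. In the gates sorted as Ccr2-negative its RNA was higher after CAWS, at 206 to 267 CPM in CAWS R2 against 20.2 to 38.7 CPM in naive R2, and at 40.6 to 122 CPM in CAWS R1 against 5.40 to 8.94 CPM in naive R1. Its part in the members' values was not tested. Summed macrophage markers were at 28020 CPM or more in every library, but their highest group mean was in monocytes, at 51680 CPM. Adgre1, which is on that list, had 538 to 641 CPM in monocytes and 1665 to 2821 CPM in macrophages. The sum therefore does not tell macrophages from monocytes. Monocyte replicate 2 stood apart from the other 20 libraries. Its other genes shorter than 1000 bases lay 0.88 above their mean over all libraries (median, log2 scale), against -0.24 to 0.31 elsewhere, and 71 of the 78 members had their highest level there. All 21 libraries shared the estimate of the spread, so the members' counts are given with and without it.

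The members spanned a wide range of levels per length. In naive R1, 18 members averaged over 100 RPKM (CPM per 1000 bases of gene length) and 25 averaged under 5 RPKM. Rpl8, part of the peptidyl transferase region of the large subunit, led with 639 ± 44.2 RPKM in naive R1 (SD, n = 3), and Rplp1, an acidic protein of the stalk that binds elongation factors, followed with 612 ± 71.3 RPKM. At the low end, Rpl3l and Rpl39l averaged 0.393 ± 0.271 and 0.88 ± 0.61 RPKM, and the core protein genes Rps13 and Rpl38 only 1.01 ± 0.361 and 1.06 ± 0.83 RPKM. The 10 members with the highest CPM summed over libraries, led by Rps3, Rpl8, Rpl4 and Rplp0, held 61.2% of the members' total. Most of these proteins stand in equal numbers in a ribosome. Of the 77 members found in the GENCODE M21 transcripts, 74 shared at least a run of 50 bases with a pseudogene, up to 120 pseudogenes for a member, and a median of 35.1% of a member's 50-base runs occurred in another gene's transcript. How reads with several matches were counted is not given in the sources used here, so the levels of genes with close copies are uncertain.

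The promoters were read for the pyrimidine tract, since the members moved together in the comparisons that follow. RefSeq held a promoter for 58 of the 78. In the 30 bases on either side of the start, a run of at least 7 C or T that opens with C stood on the sense strand in 37 of them (63.8%), against 29.6% of 26967 other genes. On the opposite strand the same run stood in 25.9% of the members and 33.7% of the others. The motif CCGGAAG, the core of sites for ETS factors, stood on either strand of the 300-base promoter in 41.4% of the members and 9.86% of the other genes. The other genes were all those with a RefSeq promoter, with or without counts here, while members had to reach 1 CPM. A comparison with expressed genes alone was not made. The windows of 8 members that recur below are shown 5′ to 3′ on the sense strand, from 30 bases before the start to 30 after it (RefSeq, GRCm38.p6), with the runs in capitals.
Rpl4 (chr9:64173357-64173416, + strand): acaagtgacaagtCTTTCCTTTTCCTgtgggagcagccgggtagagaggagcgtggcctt
Rps12 (chr10:23787180-23787239, - strand): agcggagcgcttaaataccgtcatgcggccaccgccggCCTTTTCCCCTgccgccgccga
Rps6 (chr4:86857338-86857397, - strand): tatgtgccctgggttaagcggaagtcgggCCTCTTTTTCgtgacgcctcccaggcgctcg
Rps18 (chr17:33955636-33955695, - strand): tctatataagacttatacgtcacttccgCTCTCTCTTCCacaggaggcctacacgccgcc
Rpl10a, first start (chr17:28328441-28328500, + strand): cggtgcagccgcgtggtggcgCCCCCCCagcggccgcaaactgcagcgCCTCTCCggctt
Rpl10a, other start (chr17:28328535-28328594, + strand): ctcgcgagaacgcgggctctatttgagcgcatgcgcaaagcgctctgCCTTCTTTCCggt
Rpl12 (chr2:32961682-32961741, + strand): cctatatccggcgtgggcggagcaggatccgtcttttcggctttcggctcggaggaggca
Rplp0 (chr5:115559437-115559496, + strand): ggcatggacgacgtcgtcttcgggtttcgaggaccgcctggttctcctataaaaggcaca
Rpsa (chr9:120127736-120127795, + strand): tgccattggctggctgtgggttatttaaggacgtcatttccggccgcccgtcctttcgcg
Rpl4, Rps12, Rps6, Rps18 and both starts of Rpl10a held a run. Rpl12, Rplp0 and Rpsa held no run of 7 or more that opens with C in these windows. Each of these genes held a run of 7 C or T that opens with T, which the rule leaves out. Members that rose after CAWS stand on both sides. A match is a description of letters and not a shown start of transcription.

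Together the 78 genes held a small share of the counts, and that share differed between groups. They held 1.69%, 1.63% and 1.33% of all gene counts in CAWS R3, against 0.858%, 1.03% and 1.01% in naive R3. In R2 they held 0.972%, 0.914% and 0.844% after CAWS, against 0.722%, 0.733% and 0.729% in naive cells. In R1 the share was 0.653%, 0.894% and 0.778% after CAWS, against 0.598%, 0.607% and 0.597% in naive cells. In each gate the lowest CAWS library lay above the highest naive one. The monocytes held 1.35%, 2.66% and 1.23%, so that 2 of the 3 lay between naive R3 and the highest CAWS R3 library. The share was split evenly, with 0.293% to 1.33% in small subunit and 0.297% to 1.33% in large subunit genes over the libraries. The 2 mitochondrially encoded genes in the table were also higher after CAWS in each gate, without overlap, but did not follow the share library by library. They held 0.0991% to 0.166% of counts in CAWS R3 and 0.0477% to 0.052% in naive R3. In R2 they held 0.0508% to 0.0717% after CAWS and 0.0398% to 0.0435% in naive cells, and in R1 0.0395% to 0.0591% and 0.0325% to 0.0352%. In monocyte replicates 1, 2 and 3 they held 0.0517%, 0.252% and 0.1255%, where the members held 1.35%, 2.66% and 1.23%. The link of the mitochondrially encoded genes to the members was not tested. In bulk samples more ribosomal protein RNA per cell and a changed mix of cells in a gate cannot be told apart.

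**Figure D1:**
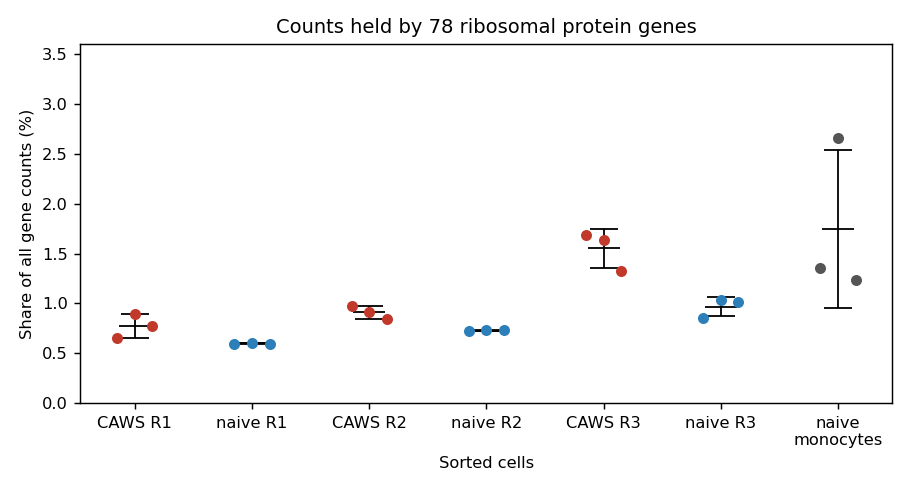
Share of all gene counts (%, y axis) held by the 78 ribosomal protein genes in each library (points), with the group mean and SD (n = 3), by sorted group (x axis). CAWS R3 sits between 1.33% and 1.69%, above naive R3 at 0.858% to 1.03%, and monocyte replicate 2 stands alone at 2.66%.

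CAWS R3 against naive R3 had the most calls among the CAWS comparisons, although with a length trend taken out R3 and R1 had 22 each. Of the 78 members, 23 were higher after CAWS at an adjusted p under 0.05 (edgeR), where 6.7% of all genes tested were higher and 8.29% lower. The median log2 fold change was 0.72, between -0.15 and 1.33, and 76 members lay above 0, against a median of -0.06 over all genes. In 64 members every CAWS library lay above every naive one, which held for 16.3% of all genes. Small and large subunit genes had medians of 0.70 and 0.72. Without monocyte replicate 2 the count was 60, all higher and including all 23, where 11.8% of all genes were higher. It was 12 without naive R3 replicate 1 and 10 without CAWS R3 replicate 1 or replicate 2.

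Rpl12 and Rplp0, on which the stalk of the large subunit is built, rose in R3. Rpl12, which anchors the stalk to the large subunit (gene ID 269261, chromosome 2, 32961712 to 32964045 of GRCm38.p6), had 13.8, 16.6 and 10.01 CPM in CAWS R3, against 3.82, 5.84 and 6.42 CPM in naive R3. The groups did not overlap, and the log2 fold change of 1.33 ± 0.28 (SE, adjusted p = 0.00273) was the largest of the 78. Rplp0, the protein on which the acidic stalk proteins sit (gene ID 11837, chromosome 5, 115559467 to 115563729), had 1454, 1441 and 1080 CPM after CAWS, against 691, 769 and 707 CPM in naive R3 (0.88 ± 0.20, adjusted p = 0.0049). Rpl12 and Rplp0 passed under every alternative tried. The 2 acidic partners had positive values short of the threshold, Rplp1 0.56 ± 0.20 (adjusted p = 0.0722) and Rplp2 0.86 ± 0.32 (adjusted p = 0.0792).

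In the small subunit, Rps12 (gene ID 20042, chromosome 10, 23785183 to 23787383) had 7.03, 7.56 and 5.01 CPM in CAWS R3, against 2.26, 3.38 and 2.45 CPM in naive R3. Its log2 fold change was 1.26 ± 0.38 (adjusted p = 0.0281), from a gene with 1162 reads over the 21 libraries. Rpsa, which holds the outer face of the small subunit head and is also known as a laminin receptor (gene ID 16785, chromosome 9, 120127766 to 120132369), had 250, 255 and 179 CPM against 115, 141 and 143 CPM in naive R3 (0.78 ± 0.23, adjusted p = 0.0259). In both genes the groups did not overlap, but the calls were lost without naive R3 replicate 1 or 3 or CAWS R3 replicate 1 or 2, and that of Rpsa also without naive R3 replicate 2.

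Several rising members have roles beyond the ribosome. Rpl11, which with the 5S RNA and Rpl5 can hold the p53 inhibitor Mdm2, rose by 1.04 ± 0.26 (adjusted p = 0.00945), while Rpl5 itself had 0.51 ± 0.30 (adjusted p = 0.264). Rpl10, a late-joining protein of the large subunit, rose by 1.01 ± 0.24 (adjusted p = 0.00604) and Rpl22, also known for its part in lymphocyte development, by 0.72 ± 0.20 (adjusted p = 0.0203). Members with well-known regulatory roles did not all pass. Rps6, the substrate of the S6 kinases, had 0.44 ± 0.26 (adjusted p = 0.275), Rps19, mutated in human Diamond-Blackfan anaemia, 0.74 ± 0.28 (adjusted p = 0.0861), and Rpl13a, which can silence inflammatory messages in human myeloid cells, 0.72 ± 0.29 (adjusted p = 0.107).

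**Figure D2:**
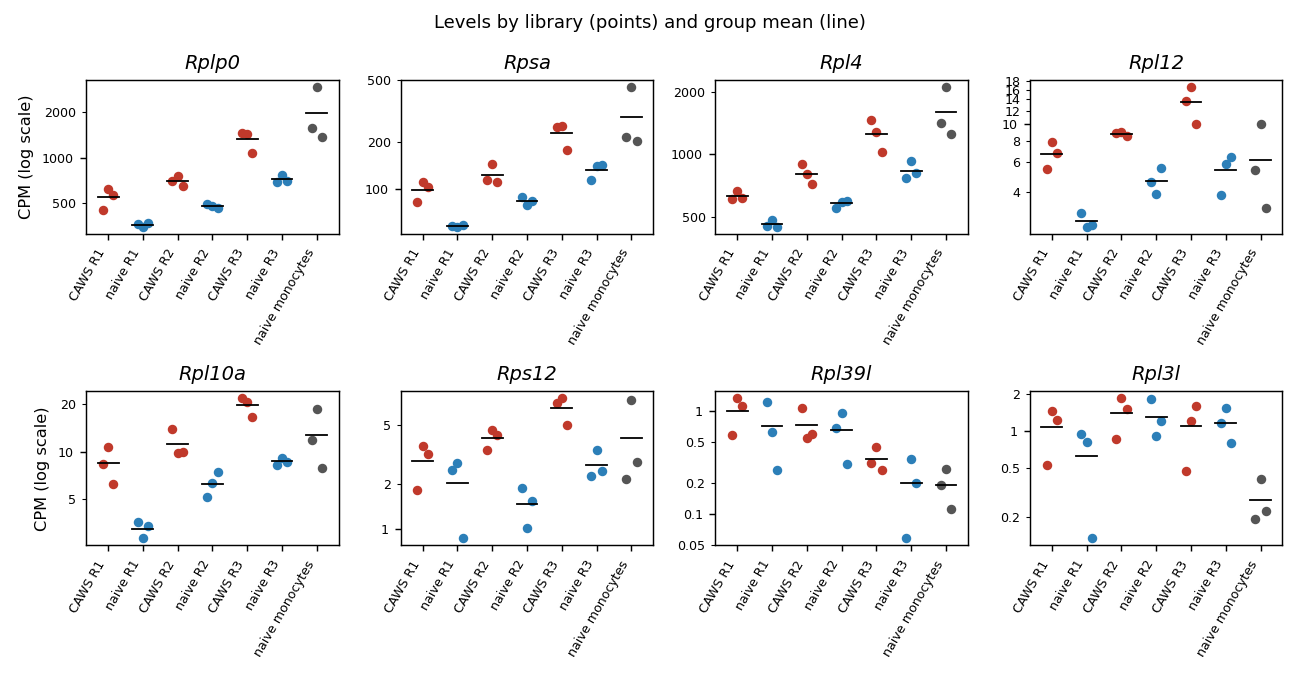
CPM (y axes, log scale) of 8 members in each library (points) with the group mean (line), by sorted group (x axis). Rplp0, Rpsa, Rpl4, Rpl12 and Rpl10a lie higher after CAWS in every gate, Rps12 lies higher in R2 and R3, and Rpl39l and Rpl3l stay under 2 CPM.

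In R1, 3 of the 78 members rose after CAWS, where 6.07% of all genes were higher and 2.87% lower, so the share of members called (edgeR) was near the background. The median log2 fold change was 0.45 (from -0.31 to 1.36), against 0.03 over all genes, and 72 members lay above 0. In 29 members the CAWS libraries all lay above the naive ones, against 16.1% of all genes. Rpl10a, a protein beside the exit site of the large subunit (gene ID 19896, chromosome 17, 28328471 to 28331033), had 8.36, 10.7 and 6.25 CPM in CAWS R1, against 3.56, 2.79 and 3.34 CPM in naive R1 (1.36 ± 0.30, adjusted p = 0.00673). Rpl12 had 5.47, 7.84 and 6.80 CPM after CAWS, against 3.02, 2.48 and 2.54 CPM in naive R1 (1.30 ± 0.33, adjusted p = 0.0165). Rpsa had 82.9, 111 and 104 CPM after CAWS, against 58.7, 57.4 and 59.1 CPM (0.77 ± 0.23, adjusted p = 0.0453). In all 3 genes the groups did not overlap. The count was 28 without monocyte replicate 2 (8.14% of all genes higher), 22 with a length trend taken out (8.6%), 1 without naive R1 replicate 2 or replicate 3, and 0 without CAWS R1 replicate 2.

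In R2, 4 members rose, where 6.79% of all genes were higher and 3.5% lower, so the share called was again near the background. The median was 0.33 (from -0.24 to 1.43), against 0.02 over all genes, and 75 members lay above 0. The libraries of 50 members did not overlap, CAWS being higher, against 20.3% of all genes. Rps12 had 3.37, 4.61 and 4.25 CPM in CAWS R2, against 1.90, 1.02 and 1.54 CPM in naive R2 (1.43 ± 0.42, adjusted p = 0.0338). Rpl12 had 8.93, 8.95 and 8.50 CPM after CAWS, against 4.56, 3.87 and 5.55 CPM (0.90 ± 0.29, adjusted p = 0.0471). Rpl10a rose by 0.83 ± 0.26 (adjusted p = 0.0425). Rpl4, which lines the exit tunnel for the nascent chain (gene ID 67891, chromosome 9, 64173387 to 64178562), had 899, 804 and 724 CPM after CAWS, against 552, 592 and 598 CPM in naive R2 (0.48 ± 0.15, adjusted p = 0.0422). The count was 18 without monocyte replicate 2 (8.7% of all genes higher), and 0 or 1 without any of the 6 libraries compared.

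The direction was shared by most members. In 68 of the 78 the log2 fold change was above 0 in all 3 gates, and no member passed as lower after CAWS with edgeR or DESeq2, nor at an unadjusted p under 0.05 in edgeR. Taken gate by gate, 53.3%, 52.6% and 44.2% of all genes lay above 0 in R1, R2 and R3. The share of all genes above 0 in all 3 gates is not given. The size of the CAWS effect was then compared between gates. The median difference was 0.26 for R3 minus R1, 0.32 for R3 minus R2 and -0.10 for R2 minus R1. With a length trend taken out these medians were 0.0040, 0.18 and -0.17. With edgeR 0 members passed in any of these interactions, with 2, 4 and 0 at an unadjusted p under 0.05 and 0 with DESeq2. Few genes of any kind passed here: 0.0979% higher and 2.16% lower for R3 minus R1, 0.0979% and 2.23% for R3 minus R2, and 0.0377% and 0.0151% for R2 minus R1. Without monocyte replicate 2, Rps18 and Rps2 passed as higher for R3 minus R1, by 0.75 (adjusted p = 0.0328) and 0.58 (adjusted p = 0.0318), and 6 members passed for R3 minus R2, among them Rps18 at 0.75 (adjusted p = 0.0269). In that fit 0.83% of all genes were higher for R3 minus R1 and 0.62% for R3 minus R2. Rps18 and Rps2 were chosen after their values were seen.

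**Figure D3:**
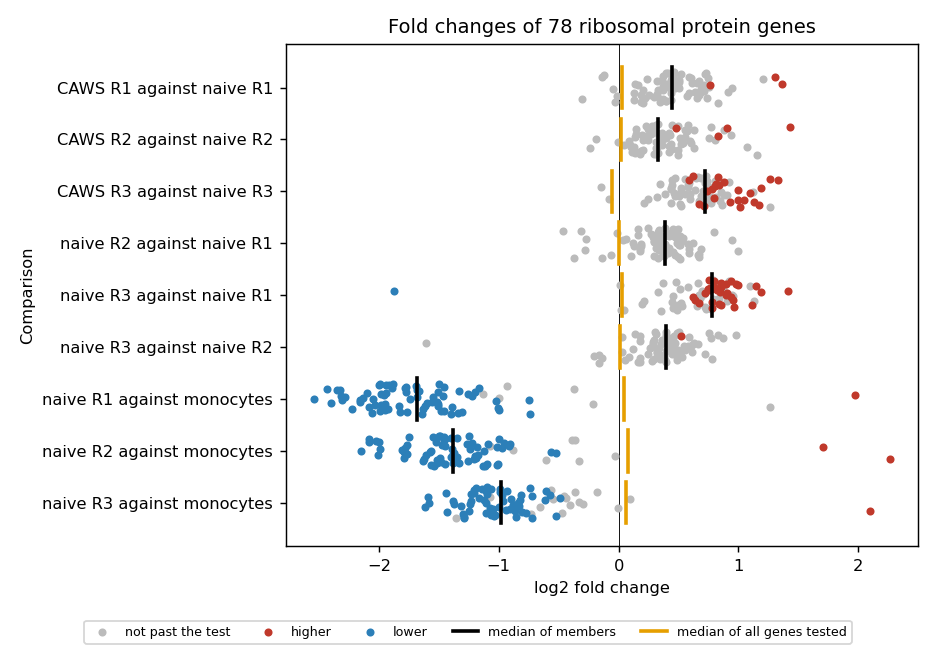
Log2 fold change (x axis) of each of the 78 members (points) in 9 comparisons (y axis), coloured by the edgeR call, with the median of the members (black) and of all genes tested (orange). The members' medians lie at 0.45, 0.33 and 0.72 in the CAWS comparisons and at -1.68, -1.38 and -0.98 against monocytes, where the median of all genes stays within 0.08 of 0.

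Markers of other cells in the gates were compared with the same groups. Conventional dendritic cell markers summed to 254 to 438 CPM in CAWS R3 and 307 to 569 CPM in naive R3, to 139 to 354 CPM in CAWS R2 and 40.2 to 43.5 CPM in naive R2, and to 33.7 to 63.0 CPM in CAWS R1 and 23.5 to 27.1 CPM in naive R1. NK cell markers summed to 30.4 to 41.3 CPM in CAWS R3 and 15.1 to 20.7 CPM in naive R3, with all 8 detected in CAWS R3 and 4 of 8 at 0 in naive R3. In R1 the NK sums were 7.46 to 26.8 CPM after CAWS and 0.993 to 2.34 CPM in naive cells, and in R2 10.5 to 24.3 CPM after CAWS and 2.60 to 3.66 CPM in naive cells. Monocyte markers summed to 4541 to 5215 CPM in CAWS R3 and 4031 to 4789 CPM in naive R3, to 2605 to 2701 CPM in CAWS R2 and 2433 to 3109 CPM in naive R2, and to 4353 to 5136 CPM in CAWS R1 and 5720 to 7084 CPM in naive R1. The monocyte sum did not follow Ccr2, which is on its list. Its mean was 6236 CPM in naive R1 and 4333 CPM in naive R3, where Ccr2 had 5.40 to 8.94 and 2041 to 2599 CPM. In R1 the sum was lower after CAWS while Ccr2 was higher, so the sum cannot be read as monocyte content. The part of other cells in the members' values was not tested.

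The naive gates stood in the order R3, R2, R1. In 67 of the 78 members the group means fell in that order, and 67 had their lowest group mean of all in naive R1. No share of all genes is given for these counts, so they cannot be set against the background. R3 against R1 gave 33 members higher and 1 lower, where 12.5% of all genes were higher and 10.7% lower, with a median of 0.78 against 0.03 over all genes. In 55 members the R3 libraries all lay above those of R1, against 19.7% of all genes. Rpl10a had 8.22, 9.16 and 8.60 CPM in naive R3, against 3.56, 2.79 and 3.34 CPM in naive R1 (1.41 ± 0.31, adjusted p = 0.0015). Rpsa had 115, 141 and 143 CPM in R3, against 58.7, 57.4 and 59.1 CPM in R1 (1.19 ± 0.23, adjusted p = 0.000836). Both genes were clear of overlap. Rplp0 was higher by 1.00 ± 0.20 (adjusted p = 0.000854), Rps6 by 0.96 ± 0.28 (adjusted p = 0.0152), Rps19 by 0.90 ± 0.30 (adjusted p = 0.0377), Rps4x, the X-linked partner of a Y-linked gene in humans, by 0.85 ± 0.19 (adjusted p = 0.00246) and Rpl3 by 0.85 ± 0.23 (adjusted p = 0.00949). The count of 34 was 52, all higher, without monocyte replicate 2, where 14.9% of all genes were higher. It was 19 without naive R1 replicate 1, 2 or 3 or without naive R3 replicate 2, and 20 without naive R3 replicate 3.

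The 2 smaller steps gave few calls. R3 against R2 had a median of 0.40 against 0.01 over all genes, and 33 members without overlap against 16.7% of all genes. Only Rpl4 passed, with 769, 926 and 812 CPM in naive R3 against 552, 592 and 598 CPM in naive R2 (0.52 ± 0.15, adjusted p = 0.0214), where 6.63% of all genes were higher and 5.77% lower. R2 against R1 had a median of 0.38 against 0.00 over all genes, and 51 members in which every R2 library lay above every R1 library, against 14.4% of all genes. None of the 78 passed with edgeR, where 3.88% of all genes were higher and 3.25% lower, although 18 had an unadjusted p under 0.05 and DESeq2 called 1. Rplp0 had 498, 481 and 465 CPM in naive R2 and 365, 350 and 372 CPM in naive R1, with no overlap (0.41 ± 0.20, adjusted p = 0.266). Without monocyte replicate 2 both steps gave 17 calls, all higher. Of all genes 8.73% were then higher for R3 against R2 and 5.29% for R2 against R1. Rpl4 was not called without naive R2 replicate 1, 2 or 3 or naive R3 replicate 2.

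Against the monocytes most members were lower in the naive macrophages. In R1, 71 were lower and 1 higher, where 30.8% of all genes were lower and 32.5% higher, with a median of -1.68. In R2, 69 were lower and 2 higher, against 30.5% and 33.1% of all genes, with a median of -1.38. In R3, 60 were lower and 1 higher, against 27.1% and 31.9% of all genes, with a median of -0.98. Rplp0 had 365, 350 and 372 CPM in naive R1, against 1564, 2931 and 1371 CPM in monocytes (-2.43 ± 0.21, adjusted p = 2.79e-09). Rpl41, a very short basic peptide of the large subunit, had 23.3, 29.0 and 17.3 CPM in naive R1, against 77.2, 237 and 91.7 CPM in monocytes (-2.54 ± 0.42, adjusted p = 5.76e-05). In R2 the largest falls were those of Rpl41 (-2.15 ± 0.41, adjusted p = 0.000218) and Rpl24 (-2.08 ± 0.35, adjusted p = 1.88e-05), and in R3 those of Rps15a (-1.61 ± 0.42, adjusted p = 0.00362) and Rpl34 (-1.59 ± 0.40, adjusted p = 0.00234).

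Monocyte replicate 2 set much of the size of these differences. Rps15a had 24.0, 40.0 and 49.3 CPM in naive R3, against 64.1, 206 and 76.4 CPM in monocytes, and replicate 2 lay far above the other monocyte libraries. Without that library the medians were -1.18 in R1, -0.79 in R2 and -0.41 in R3, and the members past the test were 65, 63 and 34, of them 64, 61 and 32 lower, where 28.8%, 28.5% and 25.3% of all genes were lower. Rplp0 was lower without it as well, by 2.01 in R1 (log2 fold change -2.01, adjusted p = 5.85e-13). The libraries also differ in tissue of origin, heart against spleen, which cannot be told apart from cell type here. Red cell markers summed to 0 to 5.12 CPM over the 9 naive macrophage libraries and 8.49 to 73.9 CPM in monocytes, and their part in the result was not tested.

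A pair of tissue-restricted paralogs make up the calls above as higher than in monocytes. Both reached the minimum of 1 CPM only through macrophage libraries, Rpl3l in 11 and Rpl39l in 4, so the rule itself favours higher values there and their values are given as a description. Rpl3l, the copy of Rpl3 found in heart and skeletal muscle (gene ID 66211, chromosome 17, 24727826 to 24736143), had 1.81, 0.910 and 1.19 CPM in naive R2 and 1.16, 1.54 and 0.794 CPM in naive R3, against 0.193, 0.410 and 0.224 CPM in monocytes. Its log2 fold change was 2.26 ± 0.64 in R2 and 2.10 ± 0.68 in R3, and naive R1 with 0.940, 0.807 and 0.134 CPM had 1.26 ± 0.77. Cardiomyocyte markers moved with it: the 10 genes summed to 92.5 to 123 CPM in naive R2, 98.7 to 126 CPM in naive R3 and 40.0 to 61.8 CPM in naive R1, with none at 0, against 0.205 to 0.643 CPM in monocytes, with 4 of 10 at 0. The part of heart muscle RNA in the Rpl3l result was not tested. No 50-base run of Rpl3l was shared with another gene, while 67.1% of those of Rpl3 were. Rpl3 itself was lower in R2 (-0.97 ± 0.22, adjusted p = 0.000584) and in R3 (-0.62 ± 0.22, adjusted p = 0.0191) than in monocytes.

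Rpl39l, the testis copy of Rpl39 (gene ID 68172, chromosome 16, 10170197 to 10174911), had 1.24, 0.621 and 0.267 CPM in naive R1 and 0.678, 0.967 and 0.308 CPM in naive R2, against 0.193, 0.273 and 0.112 CPM in monocytes. Its log2 fold change was 1.97 ± 0.70 in R1 and 1.70 ± 0.71 in R2, and naive R1 replicate 3 lay within the monocyte values. In naive R3 it had 0.0579, 0.343 and 0.198 CPM, a log2 fold change of -1.88 ± 0.68 against R1, and it is the member counted as lower there. It reached the minimum of 1 CPM in naive R1 replicate 1 and in no R3 library. The rule itself therefore favours R1 over R3 for Rpl39l, and this value too is given as a description. Without naive R1 replicate 1 the values in R1 were 1.23 against monocytes and -1.15 for R3 against R1. With 203 reads over the 21 libraries these values are imprecise. Rps27l, the p53-induced copy of Rps27, had 25.9, 40.2 and 43.0 CPM in CAWS R1, against 35.2, 39.2 and 37.1 CPM in naive R1 (-0.03 ± 0.26, adjusted p = 0.964). Rps27 itself had 4.37, 5.57 and 3.30 CPM in CAWS R1, against 1.49, 1.93 and 2.40 CPM in naive R1 (1.20 ± 0.46, adjusted p = 0.111). The difference between the 2 genes was not tested.

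Because ribosomal protein messages are short, gene length was compared with every fold change. Of the members, 60 are shorter than 1000 bases by the deposited gene length, and the exception at the long end is Rps15a with 5136 bases. In CAWS R3 against naive R3 other genes under 1000 bases had a median of 0.33 (1241 genes) and genes of at least 4000 bases -0.23 (3711 genes), against 0.74 for the short members and 0.59 for the 18 longer ones. Taking a length trend out of each library left a member median of 0.37 and 22 calls, where 7.95% of all genes were higher. Of these calls 19 were among the 23. Rps12 was among the 4 lost (0.81, adjusted p = 0.0621), while Rplp0 stood at 0.71 (adjusted p = 0.000121). In CAWS R2 against naive R2 other short genes had a median of 0.20 and the corrected member median was 0.16. The 6 calls then, which include all 4, were near the background, as 8.59% of all genes were higher. In CAWS R1 other short genes had 0.14 and the corrected member median was 0.36. There were 22 calls with all 3 included, where 8.6% of all genes were higher.

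Length moved least between naive R2 and R1. Other short genes had a median of 0.00 there, and after correction the member median was 0.39 with 24 calls, all higher, against none before it. Of all genes 5.54% were higher after correction. In naive R3 against R1 short genes had 0.17, and the corrected median of 0.62 came with 45 members higher and 1 lower. There 15.1% of all genes were higher and 13% lower. Against monocytes short genes had medians of -0.75, -0.77 and -0.58 in R1, R2 and R3. The corrected member medians were -0.88, -0.47 and -0.28, with 56, 49 and 29 lower and 2, 5 and 4 higher. Of all genes 30.2%, 29.6% and 26.7% were lower and 34%, 34.3% and 33.4% higher. Rplp1 then stood higher in R2 than in monocytes (0.63, adjusted p = 1.96e-06), where the uncorrected value was lower (-0.52 ± 0.20, adjusted p = 0.0312), and Rps27l turned in all 3 gates. Directions of these 2 genes against monocytes therefore depend on the correction.

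**Figure D4:**
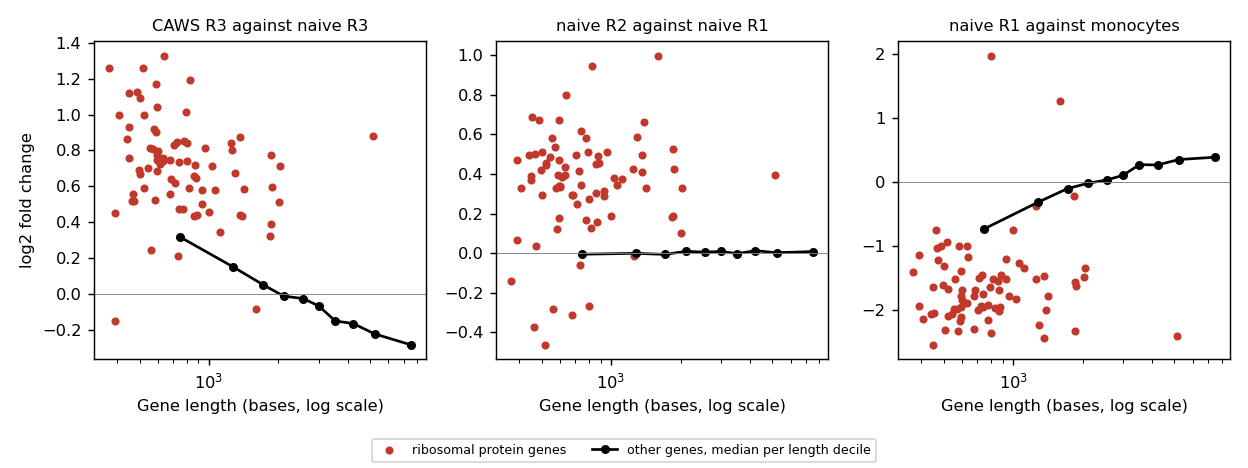
Log2 fold change (y axis) against gene length in bases (x axis, log scale) for the 78 members (red) and the median of other genes in 10 classes of length (black) in 3 comparisons. Other genes slope down with length in CAWS R3 against naive R3, lie flat at 0.00 in naive R2 against naive R1 and slope up in naive R1 against monocytes, and most members lie beyond the black line in each.

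Members were also split by the sequence they share with other genes. In CAWS R3 against naive R3 the median was 0.69 in the 8 members with under 10% of their 50-base runs in another gene and 0.75 in the 20 members with at least 50%, and 3 and 8 of them passed. In naive R1 against monocytes these medians were -1.44 and -1.58. Rpl22, with 5.16% shared, had 310, 335 and 267 CPM in CAWS R3, against 156, 197 and 203 CPM in naive R3. These groups do not overlap.

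Ribosome-associated genes outside the name rule were also compared. Rack1, the signalling scaffold on the small subunit head, had 1524, 1563 and 1109 CPM in CAWS R3, against 823, 888 and 775 CPM in naive R3 (0.76 ± 0.19, adjusted p = 0.0122). Fau, which makes Rps30 fused to a ubiquitin-like protein, had 34.8, 28.5 and 21.02 CPM in CAWS R3, against 13.5, 16.7 and 15.3 CPM in naive R3 (0.88 ± 0.30, adjusted p = 0.0548). Rps27a, the ubiquitin fusion among the members, had a log2 fold change of 0.59 ± 0.32 there (adjusted p = 0.225).

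Other parts of the translation machinery were then compared. Elongation factors and other messages with a TOP tract also held members that rose: 7 of 21 in CAWS R1, 7 in CAWS R2 and 15 in CAWS R3 passed as higher, where 6.07%, 6.79% and 6.7% of all genes did, and the others did not pass, with medians of 0.47, 0.43 and 0.64. Eef2, which moves the ribosome along the message, had 5390, 5621 and 4890 CPM in CAWS R3, against 3551, 3464 and 3410 CPM in naive R3 (0.61, adjusted p = 2.54e-05). It rose by 0.65 in R1 (adjusted p = 3.29e-05) and by 0.51 in R2 (adjusted p = 0.000255). Pabpc1, the poly(A)-binding protein, rose by 0.58 in R1 (adjusted p = 0.000299) and by 0.54 in R2 (adjusted p = 0.000347), and Eif3f, a subunit of the initiation factor eIF3, by 0.86 in R3 (adjusted p = 2.61e-05). With a length trend taken out 13, 11 and 16 of the 21 were higher, with 2 lower in R2. There 8.6%, 8.59% and 7.95% of all genes were higher, and 4.38% lower in R2. Without monocyte replicate 2 the counts were 15, 13 and 18, with 1 lower in R2. There 8.14%, 8.7% and 11.8% of all genes were higher, and 6.44% lower in R2.

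Genes that build ribosomes had medians below 0. Of 41 genes for ribosome assembly and ribosomal RNA synthesis, 3 fell in CAWS R1, 4 in CAWS R2 and 5 in CAWS R3 and the others did not pass, where 2.87%, 3.5% and 8.29% of all genes fell, with medians of -0.27, -0.14 and -0.26. Bysl, needed to mature the small subunit, had 10.3, 11.7 and 11.02 CPM in CAWS R1, against 19.4, 22.7 and 17.4 CPM in naive R1 (-0.85, adjusted p = 0.00139), and it fell by 0.63 in R2 (log2 fold change -0.63, adjusted p = 0.015). Nop58, a core protein of the particles that methylate ribosomal RNA, had 35.5, 29.2 and 29.6 CPM in CAWS R3, against 46.4, 48.5 and 44.3 CPM in naive R3 (-0.56, adjusted p = 0.00909). Gnl3, a nucleolar GTPase, fell in R1 (-0.77, adjusted p = 0.00276) and Utp20, a small subunit processome protein, in R3 (-0.92, adjusted p = 0.00309). In Bysl and Nop58 the groups named here did not overlap. Without monocyte replicate 2, 7, 6 and 7 fell and 3 rose in R3, where 5.1%, 6.44% and 8.95% of all genes fell and 11.8% rose in R3.

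The remaining lists moved little or in part. Of 26 initiation factors, 1 rose in CAWS R1, 4 rose and 2 fell in CAWS R3 and the rest did not pass, with medians of 0.01, 0.03 and 0.06 in R1, R2 and R3. Of all genes 6.07% rose in R1, and 6.7% rose and 8.29% fell in R3. Leaving out monocyte replicate 2, the numbers that rose were 2, 2 and 7, and 2 fell in each gate. There 8.14%, 8.7% and 11.8% of all genes rose, and 5.1%, 6.44% and 8.95% fell. Eif4a2, an RNA helicase of initiation, rose by 0.43 in R3 (adjusted p = 0.00778), and Eif3b, an eIF3 subunit, fell (-0.36, adjusted p = 0.0144). Eif3f, another eIF3 subunit, was counted with the elongation factors and TOP messages above and not here. Of 77 mitochondrial ribosomal proteins, 2, 3 and 12 rose, where 6.07%, 6.79% and 6.7% of all genes did, with medians of 0.05, 0.14 and 0.29. Mrpl30 of the large mitochondrial subunit rose by 0.90 in R3 (adjusted p = 0.00543). The length correction moved this list. Its median in R3 was then 0.08 with 5 higher and 1 lower, where 7.95% of all genes were higher and 7.7% lower. Without monocyte replicate 2, 29 of the list were higher in R3, where 11.8% of all genes were.

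Regulators of ribosomal protein output were compared last. Of 23 genes of mTORC1 and TOP message control, 2 fell in R1, 1 fell in R2 and 2 rose and 1 fell in R3. Of all genes 2.87%, 3.5% and 8.29% fell, and 6.7% rose in R3. The numbers that fell were 3, 2 and 2 without monocyte replicate 2, and 2 rose in R3. There 5.1%, 6.44% and 8.95% of all genes fell, and 11.8% rose in R3. Mlst8, a core subunit of the kinase complex, fell in R1 (-0.82, adjusted p = 0.00909), and Larp4, a poly(A)-binding cofactor, fell in R1 (-0.44, adjusted p = 0.0462), R2 (-0.48, adjusted p = 0.027) and R3 (-0.47, adjusted p = 0.0239). Of 9 genes of the network around Myc, which drives ribosome production in growing cells, Mycl rose in R1 (1.54, adjusted p = 0.000318). Mxd3, with 0.512 to 1.76 CPM in naive R2, rose in R2 (1.90, adjusted p = 0.00429). Of all genes 6.07% rose in R1 and 6.79% in R2. Of 14 genes of the integrated stress response, Nupr1 rose in R2 (0.83, adjusted p = 0.0438) and Atf4, its central transcription factor, fell in R3 (-0.57, adjusted p = 0.0129).

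**Figure D5:**
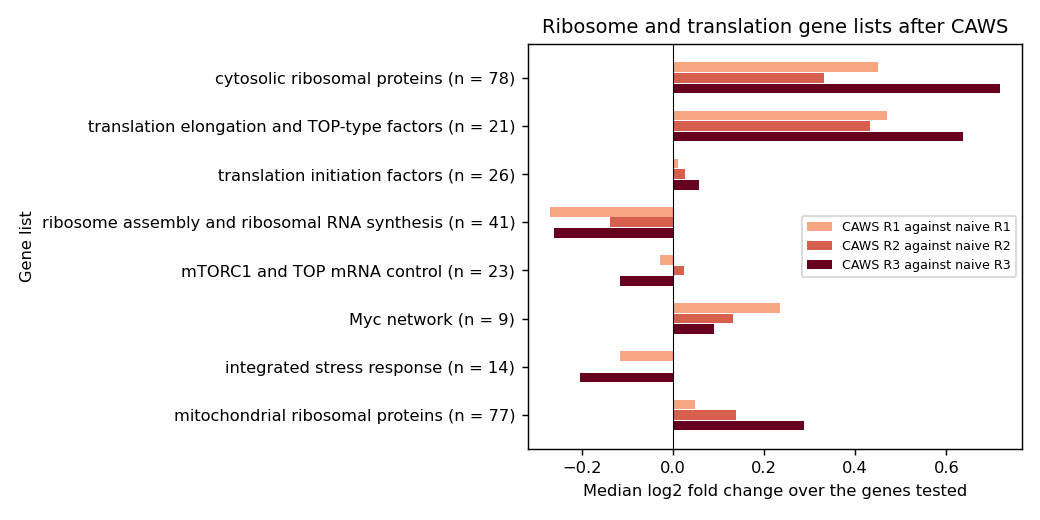
Median log2 fold change (x axis) over the genes tested of the 78 members and 7 gene lists (y axis, with their numbers), for CAWS against naive cells in R1, R2 and R3 (bars from 0). The ribosomal protein genes and the list of elongation factors and other TOP messages lie between 0.33 and 0.72. Ribosome assembly lies between -0.27 and -0.14, and mitochondrial ribosomal proteins reach 0.29.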

How the data were processed

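Whole-number gene counts were deposited, with each gene's length per the file headers; featureCounts and mm10 are named in the submitters' processing notes. Of the aligner, strand setting and treatment of reads with several matches nothing is given in the sources used here. TruSeq RNA kits were used, per the labels' protocols. In 21 of 21 libraries the sample's own file matched the joint table. Symbols came from RefSeq (GRCm38.p6) for 25275 of 27179 gene IDs. From the counts, genes with enough reads (filterByExpr, minimum count 10, minimum total 15) were tested with edgeR 4.0.16 in R 4.3.3 (robust quasi-likelihood test, two-sided, TMM scaling with factors from 0.909 to 1.065, 1 mean for each of 7 groups, 14 residual degrees of freedom), with Benjamini-Hochberg adjusted p over 13275 genes. SE was worked out from the fold change and F. CPM uses TMM-adjusted totals, and RPKM divides by the deposited length. The test was checked on simulated data.

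Alternatives were DESeq2 1.42.0, RLE scaling, TMM without the members, no filter, only the groups compared, a per-library length trend over other genes as an offset, blocks by replicate number or pool, and each library left out. Leaving out monocyte replicate 2 from comparisons it does not enter was chosen after seeing the data. The members and lists were chosen with earlier results of these data known. Members named are a fixed set, the largest called changes per comparison and, in lists, the genes with the smallest p in CAWS comparisons; the most abundant members, and members called only under an alternative, were chosen after their values were seen. Same-numbered libraries of a treatment come from 1 pool per the series design, and their deviations from group means correlated at 0.15 to 0.64 (18 pairs, 7064 genes). Across treatments and with monocytes these were -0.27 to 0.37, so numbers were read as pools within a treatment only. Replicates are separate pools. Shared 50-base runs were counted in GENCODE M21 transcripts.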

Additional observations from a re-analysis of the deposited data

Results flagged for a closer look

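Reads were also assigned to 34 gene rows that are named as ribosomal protein pseudogenes and belong to no comparison above. These rows held a mean of 0.0346% of counts in CAWS R1, 0.0407% in CAWS R2 and 0.0806% in CAWS R3, against 0.0248%, 0.0302% and 0.04% in naive R1, R2 and R3. In each gate the lowest CAWS library lay above the highest naive one (0.0286% against 0.0254% in R1, 0.038% against 0.0302% in R2, 0.0667% against 0.0421% in R3). The monocytes held 0.0869% ± 0.0438 (SD, n = 3). The share of reads on these rows that came from the parent genes was not tested.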

How the results depend on the processing

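Without monocyte replicate 2 (chosen after seeing the data, except against monocytes) the members past the threshold were 28, 18 and 60 for CAWS R1, R2 and R3, 17, 52 and 17 for naive R2 against R1, R3 against R1 and R3 against R2, and 2 and 6 for the CAWS effect in R3 minus R1 and in R3 minus R2. For the CAWS effect in R3 minus R1 and in R3 minus R2, 0.83% and 0.62% of all genes were then higher. With a length trend as an offset the members past the threshold were 22 for CAWS R1 and 24 for R2 against R1. They were 7 for R3 against R2 and 33 for R3 against monocytes. For CAWS R1, R2 against R1 and R3 against R2, 8.6%, 5.54% and 8.66% of all genes were higher, so the 7 calls were near the background. For R3 against monocytes 33.4% of all genes were higher and 26.7% lower. The medians were then 0.16 and 0.37 for CAWS R2 and R3, 0.62 and 0.23 for R3 against R1 and R2, -0.88, -0.47 and -0.28 for R1, R2 and R3 against monocytes, and 0.0040 for the CAWS effect in R3 minus R1. Under this offset the sign turned for Rplp1 in R1 (0.14) and R2 (0.63) and for Rps27l in R1 (0.44), R2 (0.0577) and R3 (0.20), all against monocytes.

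RLE scaling gave 2 for CAWS R2. DESeq2 gave 10 and 36 for CAWS R1 and R3, 1 for R2 against R1 and 3 for R3 against R2. No filter gave 2 for CAWS R2 and 22 for R3 against R1. A fit of only the groups compared gave 20, 35 and 56 for CAWS R1, R2 and R3, 33 for R2 against R1, 25 for R3 against R2, 33 for R3 against monocytes and 6 for the CAWS effect in R3 minus R2. With the replicate number as a block, CAWS R1 and R3 gave 10 and 38, R2 against R1 gave 1 and R3 against R2 gave 4. With the pool as a block the counts for naive gates were 0, 29 and 1 and no count moved by over 1.5 times. The causes were not tested. Shares of all genes called are not given for these fits, so their counts cannot be set against the background.

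Leaving out each compared library in turn gave 0 to 2 for CAWS R1, 0 to 1 for CAWS R2, 10 to 25 for CAWS R3, 0 for R2 against R1, 19 to 37 for R3 against R1, 0 to 1 for R3 against R2, and 65 to 73, 63 to 73 and 34 to 70 for R1, R2 and R3 against monocytes, with 46 in R3 without naive R3 replicate 1. The medians were 0.30 to 0.55, 0.32 to 0.38 and 0.61 to 0.84 for CAWS R1, R2 and R3, 0.35 to 0.41, 0.72 to 0.88 and 0.32 to 0.50 for R2 against R1, R3 against R1 and R3 against R2, -1.97 to -1.18, -1.68 to -0.79 and -1.27 to -0.41 against monocytes, and -0.21 to 0.0449, 0.14 to 0.42 and 0.23 to 0.43 for the CAWS effect in R2 minus R1, R3 minus R1 and R3 minus R2. Of 1071 values of 80 named gene results under the alternatives, 937 kept direction and call, 129 kept direction and lost the call, and 5 turned. With 3 pools a group and down to 203 reads for a member, low members are the least precise.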
